A study of Bos taurus with 16 samples.

Results

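This account covers 7 genes of bovine whole blood, given as Ensembl identifiers, in dairy cattle of high and of low milk protein yield: ENSBTAG00000020285, ENSBTAG00000013160, ENSBTAG00000010828, ENSBTAG00000047491, ENSBTAG00000009209, ENSBTAG00000006073 and ENSBTAG00000001151. They are 7 of the 24616 gene identifiers in the count tables and 7 of the 13159 that were tested. The 7 were chosen by their small unadjusted p for a higher level in the high-yield animals, at a mean of at least 1 CPM (each count as a rate per 1000000 counts in genes, scaled with TMM factors). By that p they ranked 3 to 9 among the genes higher in the high-yield animals, so the group difference of each is a description and not a result of a test. Whole blood of 8 animals labelled high and 8 labelled low in milk protein yield gave 1 RNA sequencing library per animal. The series' design text names the groups by another trait, as an abbreviation, and the grouping used here is that of the sample labels. All animals share the species and the tissue, and the labels used here give no breed, age, lactation stage, treatment or blood cell count.

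Whole blood RNA comes from a mixture of cells. White cells such as neutrophils, lymphocytes and monocytes carry most of the varied messenger RNA, while red cell precursors and platelets add few but abundant transcripts. Milk protein itself is made in the mammary gland, so blood reports on circulating cells and not on the secretory tissue. In such a bulk sample fewer cells of a type and less RNA per cell cannot be told apart. Gene names are absent from the count tables, and 0 of the 24616 identifiers matched the 37063 genes of the RefSeq table of a later assembly (ARS-UCD2.0). The 7 genes are therefore named by identifier only. No function is stated for them, blood cell markers were not scored, and neither sequence nor position is given. Gene lengths were not at hand either, so levels are compared between animals within a gene and never between genes.

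Libraries held 23727368 to 39793845 counts assigned to genes. That of high-yield animal 4 was unlike the other 15, with a count in 12197 genes against 15494 to 16217 elsewhere. Of its genes with a count, 3.07% had 1 to 10 counts, against 16.9% to 19.0% elsewhere. Its TMM factor was 0.791, against 0.945 to 1.13 elsewhere. What sets this library apart was not tested. The other 15 libraries formed 2 sets by the share of alignments that were not unique. This share was 7.83% to 8.81% in 8 libraries (4 high-yield, 4 low-yield) and 4.0% to 4.81% in 7 (3 high-yield, 4 low-yield), and no label names a batch. Totals were 23727368 to 39793845 counts in the former set and 25108229 to 37116647 in the latter. High-yield animal 4 had a share of 6.08%, between those of the 2 sets, and was put in neither.

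Each of the 7 genes had a higher mean and a higher median in the high-yield animals, and in each the groups overlapped. In 5 of the 7, 6 of the 8 high-yield animals exceeded all low-yield animals. Over all tested genes 0.251% reached 6 or more such animals, and 1 gene, or 0.0076%, had no overlap at all. In edgeR's quasi-likelihood test no gene of the whole table was called at an adjusted p below 0.05 (0 of 13159, or 0%), and the adjusted p of all 7 genes was 0.986. At an unadjusted p below 0.05, 244 of the tested genes were higher in the high-yield animals, which is 1.85%, and all 7 are among them because that p chose them. Without high-yield animal 4 the adjusted p of the 7 in edgeR was 0.854, and 285 tested genes were higher at an unadjusted p below 0.05. For 6 of the genes the mean was 1.64 to 2.43 times as high in the high-yield group, and 1.63 to 2.48 times without that animal. The exception was ENSBTAG00000020285, whose ratio of means was 38.1 over all 16 animals and 5.13 once high-yield animal 4 was left out.

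**Figure D1:**
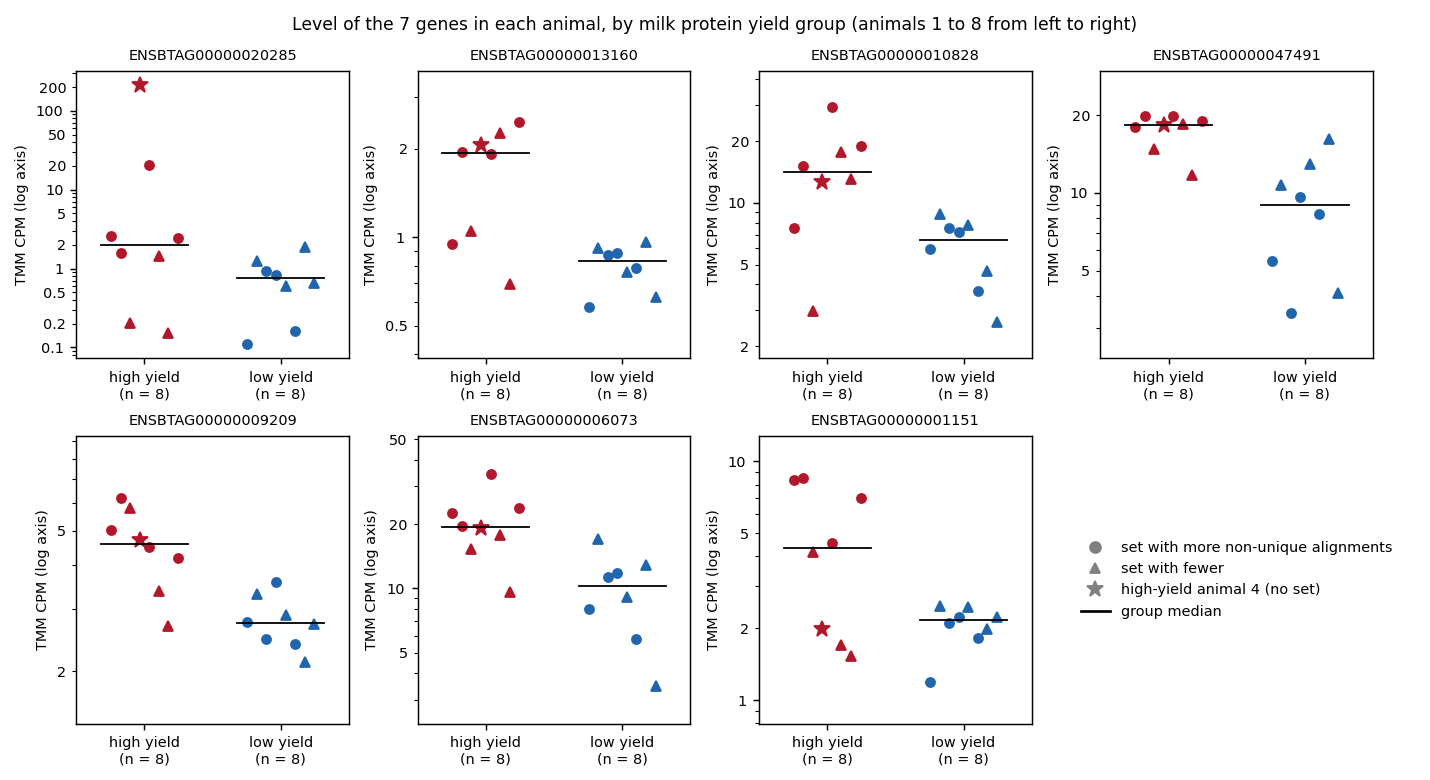
Level in TMM CPM (vertical log axis) of each gene in each animal, high-yield in red and low-yield in blue, animals 1 to 8 from left to right within a group; circles and triangles are the sets of libraries with more and with fewer non-unique alignments, the star is high-yield animal 4, and the line is the group median. The groups overlap in every panel, the triangles of the high-yield group lie mostly low, and the star stands at 215 CPM in the first panel.

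The level of ENSBTAG00000020285 rested on few animals. It ran from 0.151 through a median of 2.01 to 215 CPM among high-yield animals, and from 0.109 through 0.751 to 1.86 CPM among low-yield ones. High-yield animal 4, with 5311 counts, held 88.2% of the summed level of its group. High-yield animal 5 followed with 20.4 CPM from 766 counts, and it made up 70.8% of what the other 7 animals held. The 6 remaining high-yield animals had 0.151 to 2.59 CPM, 1.75 times the low-yield mean on average, and that mean was 0.801 ± 0.571 CPM (SD, n = 8). High-yield animals 3 and 7, at 5 counts each, lay near the bottom of the low-yield range, so 4 of the 8 high-yield animals did not exceed the highest low-yield animal. The log2 fold change from edgeR was 5.25 (SE 1.35) with all libraries, 2.38 without animal 4, and 0.82 (SE 0.619, unadjusted p 0.203) without animals 4 and 5. The last value belongs to a set of libraries chosen after the levels had been seen. Among the low-yield animals the coefficient of variation was 71.3%, where counting error alone gives 20.4%. It was higher than in 98.3% of the 1000 tested genes nearest in mean level over all 16 animals. That mean, 15.7 CPM, was raised by high-yield animal 4 and lies far above the low-yield mean. The rank therefore does not compare genes of like low-yield level.

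ENSBTAG00000013160 had few counts, 16 to 77 per library. Its lowest, median and highest levels were 0.693, 1.94 and 2.46 CPM in high-yield animals and 0.580, 0.827 and 0.965 CPM in low-yield animals. The low-yield animals formed a narrow band, with a coefficient of variation of 17.2%, no larger than the 20.4% that counting error gives at these counts. The high-yield animals were spread more widely, at 40.03%, and parted into 5 animals at 1.92 CPM or more and 3 at 1.05 CPM or less. Of those 3, high-yield animals 1 and 7 lay within the low-yield range and high-yield animal 3 lay just above it. On the log2 scale edgeR put the difference at 1.06 (SE 0.285, 95% interval 0.46 to 1.66).

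ENSBTAG00000009209 and ENSBTAG00000001151 also had a narrow low-yield group. ENSBTAG00000009209 had 2.68, 4.60 and 6.19 CPM as the lowest, median and highest level in high-yield animals, and 2.13, 2.74 and 3.57 CPM in low-yield animals. The coefficient of variation was 25.6% in the former and 17.1% in the latter, where counting error alone gives 10.97%. High-yield animals 6 and 7 lay within the low-yield range and the other 6 above it. Of the 7 estimates of the log2 fold change its own, 0.71 (SE 0.198, interval 0.30 to 1.13), was the smallest.

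For ENSBTAG00000001151 the lowest, median and highest level was 1.54, 4.36 and 8.52 CPM among high-yield animals, then 1.20, 2.17 and 2.48 CPM among low-yield ones. Here the high-yield animals fell into an upper part of 5 animals at 4.17 to 8.52 CPM and a lower part of 3 at 1.54 to 1.99 CPM. The lower part, animals 4, 6 and 7, lay within the low-yield range, and the upper part lay above it. High-yield animals had a coefficient of variation of 61.9%, low-yield animals one of 19.98%. On the log2 scale the groups differed by 1.20 (SE 0.357, interval 0.45 to 1.95), or by 1.31 without high-yield animal 4, which had one of the lower levels.

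ENSBTAG00000047491 showed the opposite pattern of spread. Its high-yield animals lay close together, at 11.7, 18.4 and 19.8 CPM (lowest, median, highest), with a coefficient of variation of 16.1%. The low-yield animals ranged from 3.43 through 8.97 to 16.1 CPM, with a coefficient of variation of 50.1%. As many as 6 of the 8 low-yield animals lay below the lowest high-yield animal, the most among the 7 genes. High-yield animals 3 and 7, at 14.8 and 11.7 CPM, lay below low-yield animal 7, which had 16.1 CPM. The estimate on the log2 scale was 0.99 (SE 0.273, interval 0.41 to 1.56).

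ENSBTAG00000010828 and ENSBTAG00000006073 varied in both groups. The former had 2.96, 14.1 and 29.4 CPM in high-yield animals and 2.61, 6.56 and 8.85 CPM in low-yield animals, with coefficients of variation of 54.0% and 36.3%. High-yield animal 3, at 2.96 CPM, was lower than all but 1 of the low-yield animals, and high-yield animal 1, at 7.57 CPM, was within their range. Its log2 difference was put at 1.28 (SE 0.355, interval 0.53 to 2.03). ENSBTAG00000006073 had 9.58, 19.4 and 34.5 CPM in high-yield animals and 3.49, 10.2 and 17.1 CPM in low-yield animals, with coefficients of variation of 35.6% and 43.0%. High-yield animals 3 and 7, at 15.4 and 9.58 CPM, lay below low-yield animal 2, at 17.1 CPM. Low-yield animals 3, 4 and 7, at 11.3 to 12.9 CPM, also exceeded high-yield animal 7. Here the estimate was 1.03 on the log2 scale (SE 0.288, interval 0.43 to 1.64). In both genes the top level among all 16 animals was that of high-yield animal 5.

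The same animals lay high or low in several of the genes. High-yield animals 5 and 8 exceeded every low-yield animal in all 7 genes, and animals 2 and 4 in 6. High-yield animal 1 did so in 5 genes, animal 6 in 4, animal 3 in 3 and animal 7 in 1. Animal 7 was the lowest of the high-yield group in 6 of the 7 genes. In the low-yield group the highest level belonged to animal 2 in 3 genes and to animal 7 in 3. The genes were chosen for a higher level in the high-yield group, so counts above the low-yield animals are in part built into the choice. The same counts per animal were not made over all tested genes, so how usual they are was not tested.

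Leaving out any 1 library kept all 7 log2 fold changes above 0. High-yield animal 4 decided only the size of ENSBTAG00000020285, which fell to 2.38, while the other 6 were at 0.71 to 1.31 without it. Over all libraries left out in turn, these 6 genes stayed within narrow limits, from 0.64 to 0.79 in ENSBTAG00000009209 and from 1.06 to 1.43 in ENSBTAG00000010828 as the narrowest and widest ranges. ENSBTAG00000013160 ran from 0.96 to 1.17, ENSBTAG00000047491 from 0.86 to 1.16, ENSBTAG00000006073 from 0.88 to 1.19 and ENSBTAG00000001151 from 1.02 to 1.33. The highest unadjusted p with 1 library left out was 0.0112, in ENSBTAG00000020285 without high-yield animal 4. Since the same libraries chose the genes, this stability is in part built into the choice.

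**Figure D2:**
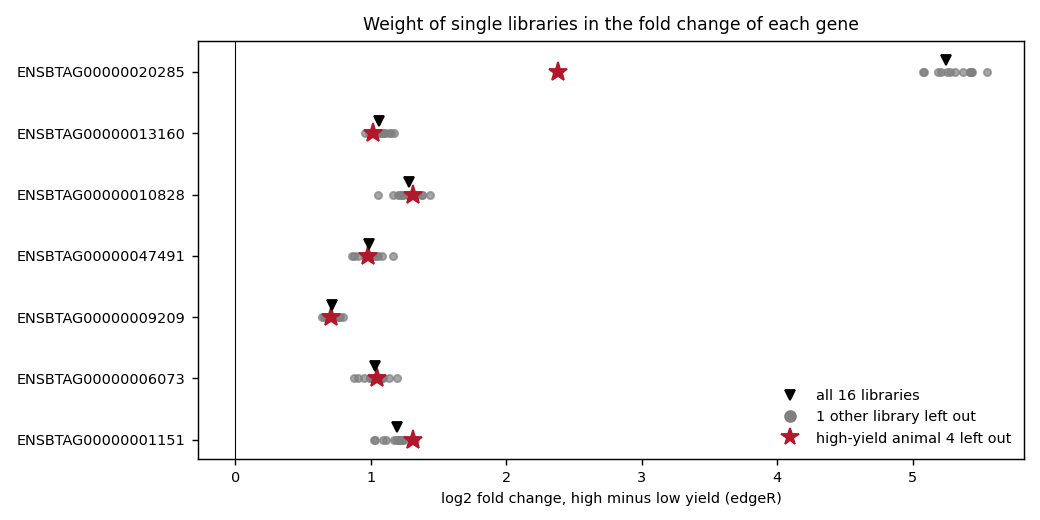
Log2 fold change of each gene, high minus low yield, from edgeR (horizontal axis), with all 16 libraries (triangle) and with 1 library left out (grey points; the star leaves out high-yield animal 4). Only the star of ENSBTAG00000020285, at 2.38, lies far from its other points.

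The contrast of high with low yield was larger in the set of libraries with more non-unique alignments than in the set with fewer, in each of the 7 genes. In the set with more, all 4 high-yield animals lay above all 4 low-yield animals in 7 of the 7 genes, where 3.66% of all tested genes did so. In the set with fewer this held for 0 of the 7, against 0.821% of tested genes. The libraries of both sets chose the genes, so the lack of overlap in the set with more is in part built into the choice. Its excess over the share of all tested genes is no separate evidence. ENSBTAG00000001151 had 7.11 ± 1.84 CPM (SD, n = 4) for high yield in the set with more, against 1.84 ± 0.461 CPM (SD, n = 4) for low yield. In the set with fewer the same means were 2.47 ± 1.48 CPM (SD, n = 3) and 2.29 ± 0.223 CPM (SD, n = 4). Its log2 fold change was thus 1.93 (SE 0.264) in the former set and 0.15 (SE 0.428) in the latter. In ENSBTAG00000020285 the sign differed between the sets, with 3.73 (SE 0.972) in the set with more and -0.81 (SE 0.783) in the set with fewer. High-yield animal 5 weighs on the size of the former: that group had 6.75 ± 9.10 CPM (SD, n = 4), with 20.4 CPM in animal 5. The others, at 1.58 to 2.59 CPM, also lay above the low-yield animals of that set, at 0.109 to 0.936 CPM.

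The 5 other genes had positive log2 fold changes in both sets. These were 1.49 and 0.50 in ENSBTAG00000047491 and 1.42 and 0.46 in ENSBTAG00000006073, the set with more first. They were 1.52 and 0.96 in ENSBTAG00000010828, 1.20 and 0.75 in ENSBTAG00000013160, and 0.81 and 0.55 in ENSBTAG00000009209. The yield contrast chose the genes with both sets together, so the sign in each set is no separate evidence, and the non-unique share's part in these differences was not tested.

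**Figure D3:**
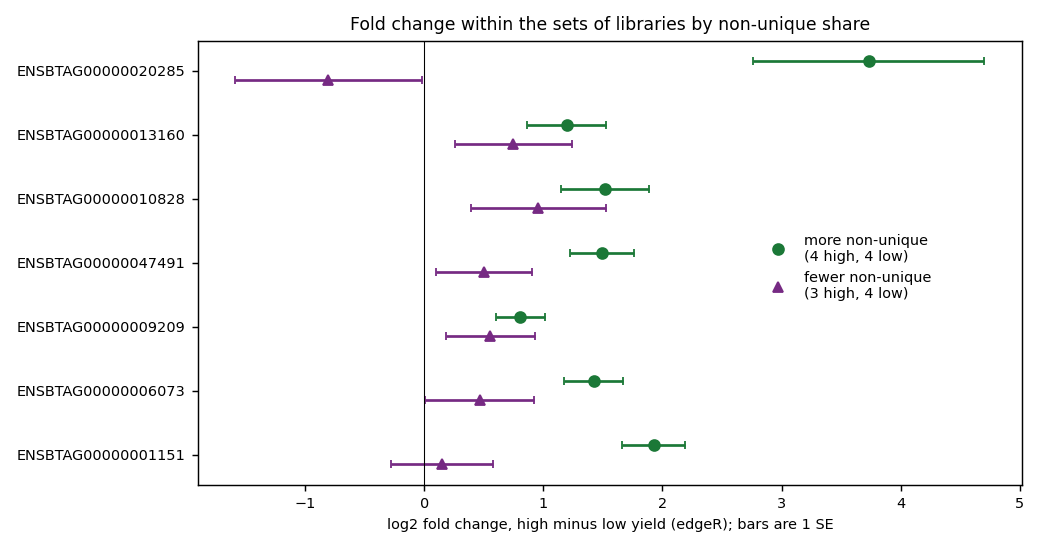
Log2 fold change of each gene, high minus low yield, from edgeR within the set of 8 libraries with more non-unique alignments (circles) and the set of 7 with fewer (triangles), without high-yield animal 4; bars are 1 SE. Each circle lies to the right of its triangle, and the gap is widest in ENSBTAG00000020285 and ENSBTAG00000001151.

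The difference between the sets in the yield contrast was tested in 1 edgeR model over all genes, added after the within-set values had been seen. It was 4.59 (SE 1.403, unadjusted p 0.00505) on the log2 scale for ENSBTAG00000020285 and 1.85 (SE 0.479, unadjusted p 0.00151) for ENSBTAG00000001151. The adjusted p in edgeR was 0.434 and 0.386, above the threshold, and that of the 5 other genes 0.478 to 0.743. The difference of ENSBTAG00000020285 was 2.91 without high-yield animal 5 and 6.28 without high-yield animal 6, and its adjusted p in edgeR ran from 0.106 to 0.774 over the settings tried. These were 2 of 7 genes at an unadjusted p below 0.05 with a larger contrast in the set with more, against 5.42% of all tested genes, and 0% of genes were called at an adjusted p below 0.05. The counts over all genes depended on single libraries: leaving out high-yield animal 6 gave 12 called genes, and leaving out low-yield animal 3 gave 1. The number with an unadjusted p below 0.05, of either sign, was 1411 over the 15 libraries and 791 to 2444 with 1 of them left out. The difference of ENSBTAG00000001151 ran from 1.54 to 2.44 over the settings tried, with an adjusted p of 0.116 to 0.614 in edgeR.

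The level of the genes, yield group aside, was not found to differ between the sets. The sets were not used to choose the genes, but the choice was not independent of them. It used the p of a fit without the set, where a set difference adds to the spread within yield groups. Genes with a large set difference were thus less likely to be chosen. A low number of the 7 passing, against all tested genes, is therefore in part built into the choice. In edgeR's model with yield group and set, 0 of the 7 genes passed an unadjusted p of 0.05, while 2123 of 13264 genes, or 16%, did, and 0 genes passed an adjusted p of 0.05. Without low-yield animal 2 the model called 844 genes (3988 at an unadjusted p below 0.05), without low-yield animal 4 it called 13 and without high-yield animal 8 it called 1, while 0 of the 7 passed an unadjusted p of 0.05 in any of these. The largest estimates were 0.93 (SE 1.06) in ENSBTAG00000020285 and 0.54 (SE 0.343) in ENSBTAG00000001151, higher in the set with more non-unique alignments. ENSBTAG00000047491 had -0.22 (SE 0.290), the only negative estimate. Adjusted p ranged from 0.419 to 0.740 in edgeR. This model takes the set difference as the same in both yield groups, so differences of opposite sign can cancel. In ENSBTAG00000001151 the set with more had 7.11 against 2.47 CPM in high-yield animals, but 1.84 against 2.29 CPM in low-yield animals. The means of ENSBTAG00000020285 were 6.75 against 0.598 CPM and 0.512 against 1.09 CPM. In ENSBTAG00000010828 and ENSBTAG00000009209 the means of both yield groups were higher in the set with more.

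Within the yield groups the levels of the genes went together only loosely. Correlations were computed on deviations of log2(CPM + 1) from the group mean, so that the group difference that chose the genes does not enter. Over the 15 animals other than high-yield animal 4, Pearson's r was above 0 in 19 of the 21 gene pairs, with a range of -0.17 to 0.71 and a median of 0.34. The median r of a member with all other tested genes lay between -0.03 and 0.02. Those include genes lower in the high-yield animals. Other genes chosen in the same direction were not compared with each other, so how usual 19 of 21 is was not tested. Of the 21 pairs, 6 had an unadjusted permutation p below 0.05, against 15.2% of the 92085 pairs of a member with any tested gene. After Benjamini-Hochberg adjustment over these 92085 pairs 0 of the 21 passed 0.05, and 209 of all pairs, or 0.227%, did. With the means of the sets by non-unique share subtracted as well, 15 of the 21 pairs had r above 0. Then 3 had an unadjusted permutation p below 0.05, where 8251 of the 92085 pairs did. Without high-yield animal 7 these counts were 15, 4 and 11622. With any other of the 15 animals left out, r was above 0 in 19 or 20 pairs.

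The pair with the smallest p was ENSBTAG00000020285 with ENSBTAG00000006073, at r = 0.68 (permutation p = 0.00147, adjusted p = 0.0922) and Spearman's rho = 0.84 (permutation p = 0.000140). Without the 2 animals farthest from the median of ENSBTAG00000020285 r was 0.67, and it was 0.78 and 0.59 in the sets with more and with fewer non-unique alignments. With high-yield animal 4 included r was 0.37, since that animal was extreme in ENSBTAG00000020285 and ordinary in ENSBTAG00000006073. ENSBTAG00000006073 also had r of 0.54 to 0.57 with ENSBTAG00000013160, ENSBTAG00000010828 and ENSBTAG00000047491.

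ENSBTAG00000009209 went with ENSBTAG00000001151, at r = 0.71 (permutation p = 0.0204, adjusted p = 0.234) and rho = 0.62 (permutation p = 0.0361). This r exceeded that of ENSBTAG00000009209 with 99.9% of the tested genes. It was 0.73 without the 2 animals farthest from the median of ENSBTAG00000009209 and 0.63 with high-yield animal 4. Within the sets it was 0.45 (more) and 0.94 (fewer). ENSBTAG00000009209 had r below 0.2 with ENSBTAG00000020285, ENSBTAG00000013160, ENSBTAG00000010828 and ENSBTAG00000047491. For the last 2 this hides unlike values in the yield groups. With ENSBTAG00000010828 r was -0.38 in 7 high-yield and 0.51 in 8 low-yield animals, and with ENSBTAG00000047491 it was 0.51 and 0.06. With the first 2 it was 0.15 each in high-yield animals, and -0.06 and -0.01 in low-yield animals. Over all 21 pairs the median r was 0.03 in the set with more and 0.39 in the set with fewer, with 11 and 15 pairs above 0.

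**Figure D4:**
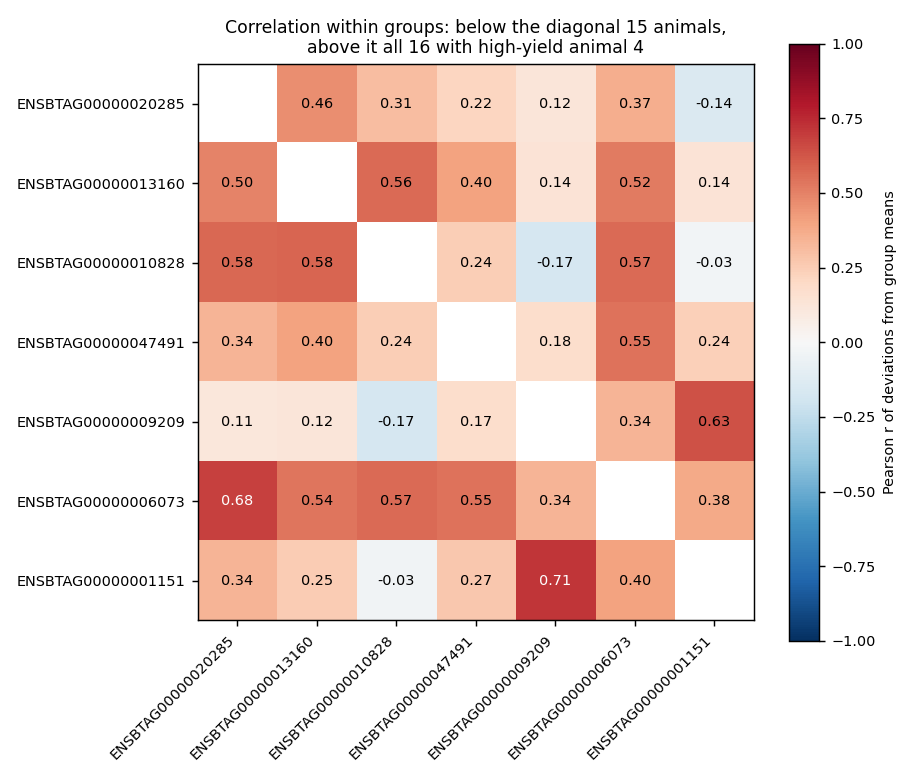
Pearson's r between the 7 genes of the deviations of log2(CPM + 1) from the yield group mean; cells below the diagonal use 15 animals and cells above it all 16 with high-yield animal 4. Most cells are weakly to moderately positive, and the highest below the diagonal are 0.71 (ENSBTAG00000009209 with ENSBTAG00000001151) and 0.68 (ENSBTAG00000020285 with ENSBTAG00000006073).

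Many other genes followed ENSBTAG00000006073 within the groups. Of 11955 genes with a mean of at least 1 CPM, 307 had an r of at least 0.8 with it, the closest at 0.96 and 0.95, and 166 of its pairs with tested genes passed an adjusted permutation p of 0.05. ENSBTAG00000013160 had 35 such neighbours at an r of 0.8 or more, ENSBTAG00000020285 29 and ENSBTAG00000010828 12. ENSBTAG00000001151 had 2, and ENSBTAG00000047491 and ENSBTAG00000009209 had 1 each. The closest pair of genes to each of the 7 never included another of the 7. The count of 209 pairs was not stable: with 1 more of the 15 animals left out it ran from 0 to 1386 and was 0 in 10 of 15 cases. It was also 0 with the means of the sets by non-unique share subtracted as well, and 0 with scaling by library totals alone. With the set subtracted 8251 pairs had an unadjusted permutation p below 0.05, against 14030 without. The count was 645 with all 16 libraries, 424 with RLE scaling and 258 with a pseudocount of 0.25. The smallest p that 100000 permutations can give is 1e-05, and at least 19 pairs must reach it before any passes the adjustment, so a count of 0 does not show that no gene followed a member.

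The choice of the genes had no sharp edge. The last gene inside, ENSBTAG00000001151, had an unadjusted p of 0.00359 (log2 fold change 1.20). The genes next in order had an unadjusted p of 0.00419 (log2 fold change 3.40) and 0.00431 (0.78), and those just ahead of the first of the 7 had 8.39e-06 (3.38) and 1.70e-04 (0.86). Limma voom, which gave libraries unequal weights, called 2 genes of the whole table at an adjusted p below 0.05, or 0.0152%. Both are among the 7: ENSBTAG00000047491 (log2 fold change 1.19) and ENSBTAG00000006073 (1.37), each at an adjusted p of 0.0466. This fit used the contrast and the libraries that chose the genes, so its 2 calls among the 7 are no separate evidence. The other 5 had an adjusted p of 0.0556 to 0.0669 in limma, in a fit where 1765 of the 13159 genes were below 0.10 and 3586 had an unadjusted p below 0.05. DESeq2 called none of the 7, with an adjusted p of 0.304 to 0.999.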

How the data were processed

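Whole blood RNA of 16 animals was sequenced from libraries of the NEBNext Ultra type, after freezing and Trizol extraction, per the labels' protocols. The files hold raw gene counts as deposited, which the authors made with TopHat2 2.1.1, SAMtools 1.4 and HTSeq on UMD3.1, per the submitters' processing notes. Strand setting and annotation are not stated there. Reads of antisense neighbours cannot be told apart, and near-identical gene copies lose reads to the non-unique entry. The 5 entries per file that name no gene were left out of library sizes. The non-unique entry, as a share of all entries, divided 15 libraries at its widest gap.

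Genes passing filterByExpr (minimum count 10, total 15) were fitted with edgeR 4.0.16 in R 4.3.3 (TMM, quasi-likelihood F-test, Benjamini-Hochberg over all tested genes). SE is the log2 fold change over the root of F. Correlations used 100000 two-sided permutations of animals within groups (numpy 2.4.6), adjusted over all pairs of a member with a tested gene. The steps were tested on simulated data. Counting error is the Poisson part of the coefficient of variation. Alternatives used DESeq2 1.42.0, limma 3.58.1, other scalings and filters, and leaving out libraries. Over 120 library pairs the chi-square per degree of freedom was at least 31.5, so none was counted as a repeat. Separate animals are taken from the labels, and p-values measure the spread between these samples.

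The members and lists were chosen with earlier results of these data known. All 7 members are named, and the 2 closest genes to each are given by r only. Lists of blood cell markers could not be scored without gene names.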

Additional observations from a re-analysis of the deposited data

Results flagged for a closer look

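In each gene the extreme animals were set against the rest of their yield group, 14 groups in all, and 1 of these held an animal beyond Dixon's critical value for 8 animals, which chance exceeds in about 5% of groups. High-yield animal 4 had 215 CPM of ENSBTAG00000020285, and the gap to the next animal made up 0.906 of the range of the group. On the scale of log2(CPM + 1) the same gap was 0.442 of the range, below that critical value.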

How the results depend on the processing

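The number of genes called between the yield groups was 0 in edgeR. It stayed so with 4 other scalings, both other filters and robust dispersion, and with the set as a term and high-yield animal 4 left out. It was 3 with DESeq2, 2 with limma voom, and 0 to 1 with 1 library left out (1 without high-yield animal 1 or 3). The number at an unadjusted p below 0.05, 335, was 744 without a filter, 600 with DESeq2, 3586 with limma voom, 510 with the set as a term and high-yield animal 4 left out, and 177 (without low-yield animal 8) to 1010 (without high-yield animal 7) with 1 library left out. With the replicate number as a block it was 151. Deviations of same-numbered animals had r of -0.54 to 0.22, and 0 of the 8 high-yield animals correlated best with the low-yield animal of the same number. No pairing by number was thus seen, though such correlations cannot exclude one. Of the 7 members, 6 or 7 stayed at an unadjusted p below 0.05 under each of 28 other settings, which do not include the fits within a set. These settings share the contrast that chose the members, so this count is in part built into the choice. Where the count was 6, ENSBTAG00000020285 was missing under the block, with the set as a term, and without high-yield animals 4 and 5 (added later). The fit with the set as a term left out high-yield animal 4 too. With a filter of 1 CPM in 8 libraries ENSBTAG00000013160 was missing, as it did not pass that filter. The log2 fold change of ENSBTAG00000020285 was 2.25 with DESeq2, 2.68 with limma voom and 2.20 with the block. With the set as a term and high-yield animal 4 left out it was 1.83, against 2.38 with that animal left out alone. It was reversed, at -0.81, within the set with fewer non-unique alignments, which does not hold that animal. The count of members whose yield contrast differed between the sets at an unadjusted p below 0.05, 2, was 2 to 4 with 1 library left out, 4 without low-yield animal 8. Counts of 0 for member pairs and for members between the sets kept that value under all settings tried for them. Counting error in the low-yield group was largest, at 20.4%, in ENSBTAG00000020285 and ENSBTAG00000013160.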
